A study of Homo sapiens with 18 samples.

Results

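The zinc finger genes of chromosome 19 were taken as the genes with a protein-coding symbol of the form ZNF plus a number, with or without a final letter, that lie on chromosome 19 and have a row by gene ID in the RNA-Seq libraries. They numbered 237 of the 23604 genes or transcript entries listed in at least 1 library. RefSeq holds 246 such genes, and 9 of them had no row by gene ID (ZNF66, ZNF98, ZNF257, ZNF418, ZNF433, ZNF536, ZNF541, ZNF723 and ZNF888). Of the 237, 217 passed the filter on low counts and were tested, 20 did not pass it, and 206 had a count above 0 in every library.

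These genes encode C2H2 zinc finger proteins, in which repeated fingers fold around zinc and read DNA. Most of those on chromosome 19 arose by tandem duplication, and many carry a KRAB domain, which recruits the corepressor TRIM28 (KAP1) and, through it, the histone methyltransferase SETDB1 and HP1 proteins. KRAB zinc finger proteins are best known as repressors of transposable elements, and their own genes stand side by side in clusters along the chromosome.

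The cells were MCF10A-ErSrc, a human breast epithelial line that carries the v-Src kinase fused to the ligand-binding domain of the estrogen receptor, so that tamoxifen switches the kinase on. NT cells were left without tamoxifen and TAM cells transformed with it, and all groups share the transgene and the line. Both were then kept for 4 h in DMSO or in a single nanomolar dose of triptolide (TPL), which binds XPB, a helicase of TFIIH, and the groups are called NT, NT + TPL, TAM and TAM + TPL. Each of the 4 groups had 2 biological replicates for RNA-Seq and 2 for RNA polymerase II (RNAPII) ChIP-Seq. The ChIP-Seq gave 1 list of promoter peaks per condition, and input libraries are labelled for NT and TAM only. Labels do not say whether the replicates came from separate thaws or days, so p-values measure the spread between these cultures.

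Total expected counts lay between 7461309 and 8349448 per library. The zinc finger genes took between 0.279 and 0.395% of them, and between 219 and 229 of the 237 were listed in a library. Of the markers fixed for the cell type, the 10 epithelial genes summed to between 4222 and 19118 FPKM (fragments per unit of transcript length and of library size), and the 15 markers of other cells or of luminal cells summed to between 54.9 and 273.8 FPKM. Most of the latter was ESR1 (between 36.9 and 248.5 FPKM), part of whose sequence the transgene holds. Others were detected at low levels. CD14 had between 5.75 and 18.6 FPKM, DCN between 3.67 and 6.69, GATA3 between 1.71 and 6.38 and COL1A1 between 0.5 and 6.14. Of the endothelial markers, PECAM1 had between 0.46 and 1.69 FPKM, and CDH5 was not listed in any library. The epithelial sum was lower in both TAM than in both NT libraries and lower with TPL within each state. Not every marker followed it. KRT5, KRT14, KRT17, EGFR, CDH3 and CDH1 were lower in both TAM libraries, while KRT6A and TP63 overlapped. LAMB3 was higher in TAM (488 and 396 FPKM, against 266 and 286 in NT), as was KRT18 (457 and 450, against 443 and 377). With TPL most markers were lower in each state, but CDH1 was higher in TAM + TPL (53.8 and 53.8) than in TAM (45.0 and 41.3). The part of these markers in the results was not tested. Fractional counts, which arise when reads are divided between genes of similar sequence, were found for between 64.4 and 68.9% of the listed zinc finger genes and for between 33.0 and 34.6% of the listed protein-coding genes. The levels of close paralogs are therefore estimates.

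A few short motifs differed in frequency between the promoters of the zinc finger genes and those of all protein-coding genes. In windows from 250 bases before to 50 bases after the canonical start site, on build GRCh37 (hg19), the ETS motif CCGGAAG was found in 105 of 234 (44.9%) zinc finger promoters and in 14.1% of 19874 protein-coding promoters. The letters ACTACA, the first part of the motif of ZNF143, were found in 70 (29.9%, against 8.31%), and the CCAAT box in 121 (51.7%, against 36.0%). The TATA motif TATAAA was found in 6 (2.56%, against 9.63%) and the GC box GGGCGG in 157 (67.1%, against 61.4%). All motifs were searched on both strands, overlapping matches included. The motifs were chosen with these results in view, duplicated promoters are not independent, and a match is not a bound site. The median GC content of the windows was 59.5% for the zinc finger genes and 63.7% for all protein-coding genes.

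The 200 bases before the start site are shown on GRCh37 for 3 genes that rose with TPL (ZNF304, ZNF791 and ZNF546) and 3 that fell (ZNF628, ZNF444 and ZNF787), with the matches to these motifs in capitals. They show that promoters on both sides of the response hold matches to some of the same motifs.
ZNF304 (chr19:57862439-57862638, + strand): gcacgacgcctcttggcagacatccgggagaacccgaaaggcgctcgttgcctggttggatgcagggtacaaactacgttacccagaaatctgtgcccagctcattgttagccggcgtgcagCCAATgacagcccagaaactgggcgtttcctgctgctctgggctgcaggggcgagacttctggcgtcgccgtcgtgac
ZNF791 (chr19:12721534-12721733, + strand): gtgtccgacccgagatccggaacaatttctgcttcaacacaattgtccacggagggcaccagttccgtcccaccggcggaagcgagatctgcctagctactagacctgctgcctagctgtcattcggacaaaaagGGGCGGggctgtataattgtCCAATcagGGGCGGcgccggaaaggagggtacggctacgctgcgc
ZNF546 (chr19:40502767-40502966, + strand): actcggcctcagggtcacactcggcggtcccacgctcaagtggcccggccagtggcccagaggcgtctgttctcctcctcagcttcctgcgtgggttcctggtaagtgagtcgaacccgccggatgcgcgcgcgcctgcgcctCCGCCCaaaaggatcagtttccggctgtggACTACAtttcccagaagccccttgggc
ZNF628 (chr19:55987784-55987983, + strand): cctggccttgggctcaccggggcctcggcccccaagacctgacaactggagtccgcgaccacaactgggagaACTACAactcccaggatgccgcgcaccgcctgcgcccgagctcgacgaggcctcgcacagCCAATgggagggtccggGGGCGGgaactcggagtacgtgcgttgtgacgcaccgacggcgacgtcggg
ZNF444 (chr19:56652456-56652655, + strand): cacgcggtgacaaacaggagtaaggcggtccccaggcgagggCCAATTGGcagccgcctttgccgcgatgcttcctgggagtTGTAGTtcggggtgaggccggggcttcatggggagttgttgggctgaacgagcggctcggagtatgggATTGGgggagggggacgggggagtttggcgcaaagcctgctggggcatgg
ZNF787 (chr19:56632665-56632864, - strand): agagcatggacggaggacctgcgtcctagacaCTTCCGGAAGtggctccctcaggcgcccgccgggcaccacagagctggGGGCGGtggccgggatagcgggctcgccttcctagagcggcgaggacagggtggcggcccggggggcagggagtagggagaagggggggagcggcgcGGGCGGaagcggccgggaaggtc
ZNF546, which rose, and ZNF628 and ZNF444, which fell, each had a match to ACTACA, and none of the 6 had TATAAA. Of the genes with a window that rose in at least 1 state, 27 of 62 (43.5%) had CCGGAAG in the wider window, and of those that fell, 8 of 24 (33.3%). The CCAAT box was found in 36 (58.1%) and 7 (29.2%) of them, and ACTACA in 17 (27.4%) and 7 (29.2%).

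Most of the zinc finger genes were expressed at a low level. The mean over the 8 libraries was at least 1 FPKM for 183 of them and at least 10 FPKM for 21. Their summed level was 964.7 ± 52.9 FPKM in NT, 1072.9 ± 39.7 in NT + TPL, 839.3 ± 10.2 in TAM cells and 1040.4 ± 13.4 in TAM + TPL (SD, n = 2 each). In both states the TPL libraries lay above the DMSO libraries, and the share of all counts rose with it, from 0.330 ± 0.0150 to 0.379 ± 0.0221% without tamoxifen and, in TAM cells, from 0.282 ± 0.0046 to 0.388 ± 0.0079% in TAM. RNA-Seq measures shares of a library, so a fall of total mRNA would not be visible here, and fewer cells and less RNA per cell cannot be told apart.

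ZNF580 was the most abundant, with a mean of 59.1 FPKM, and it had 66.6 and 51.8 FPKM in NT cells, 97.2 and 88.5 in NT + TPL, 34.8 and 44.1 in TAM cells, and 46.7 and 43.2 in TAM + TPL. ZNF83 followed with a mean of 37.1 FPKM (23.8 and 24.3 in NT cells, 32.1 and 37.8 in NT + TPL, 30.2 and 30.8 in TAM cells, 57.9 and 59.8 in TAM + TPL). ZNF358, ZNF146, whose protein consists almost wholly of fingers, and ZNF761 had means of 36.4, 34.8 and 31.6 FPKM. The ranges of these 3 genes over the 8 libraries overlap, between 26.5 and 62.2 for ZNF358, between 21.4 and 55.0 for ZNF146 and between 14.6 and 53.0 for ZNF761.

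TPL in NT cells raised more zinc finger genes than it lowered. A gene is said to have risen or fallen here where its p in the quasi-likelihood test of edgeR, after Benjamini-Hochberg adjustment over all genes tested, was 0.05 or less. By that rule 41 of the 217 rose (18.9%) and 23 fell (10.6%), where 17.2% of the 16948 genes tested rose and 19.8% fell. The share that rose was near the background, and the share that fell was below it, although no test of that difference was run. The median log2 fold change was 0.32 for the zinc finger genes (SD of the 4 library pairs 0.122) and 0.09 for all genes tested. The 2 lists differed in level, with a median of 2.42 FPKM for the zinc finger genes and 5.07 for all genes tested. Over all genes the change with TPL correlated weakly with mean FPKM (rho -0.19 in NT and -0.25 in TAM). Among 215 of the zinc finger genes rho was 0.03 in NT and -0.06 in TAM. Medians centred within bins of expression are given at the end of the report. With the genes at 3 counts or fewer in a group set to their bound, the median of the zinc finger genes in NT was 0.34. The TPL libraries lay wholly above the DMSO libraries in FPKM for 96 of the 217 and wholly below for 57, where 36.4% of all genes tested were above and 32.7% below. Without NT replicate 1, 20 rose and 15 fell, and without NT replicate 2, 11 rose and 12 fell. The direction depended on the scaling. With each library scaled to equal GAPDH, 15 rose and 36 fell, and the median was -0.028, against -0.26 for all genes. The counts with a library left out or with GAPDH have no share of all genes beside them, so they are no comparison with the background.

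In TAM cells the balance was further towards higher levels. With TPL, 56 of the 217 rose (25.8%) and 16 fell (7.37%), where 14.3% of all genes tested rose and 18.6% fell. The median log2 fold change was 0.53 (SD of the 4 library pairs 0.0634), against 0.05 for all genes. The TPL libraries lay wholly above the DMSO libraries for 136 genes and wholly below for 37, where 40.0% of all genes were above and 34.7% below. Without TAM replicate 1, 26 rose and 7 fell, and without TAM replicate 2, 23 rose and 10 fell. Without TAM + TPL replicate 1, 21 rose and 10 fell, and without TAM + TPL replicate 2, 27 rose and 9 fell. Scaled to GAPDH, 35 rose and 16 fell, with a median of 0.41 against -0.07 for all genes. Here too the counts of these alternatives have no share of all genes beside them.

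**Figure D1:**
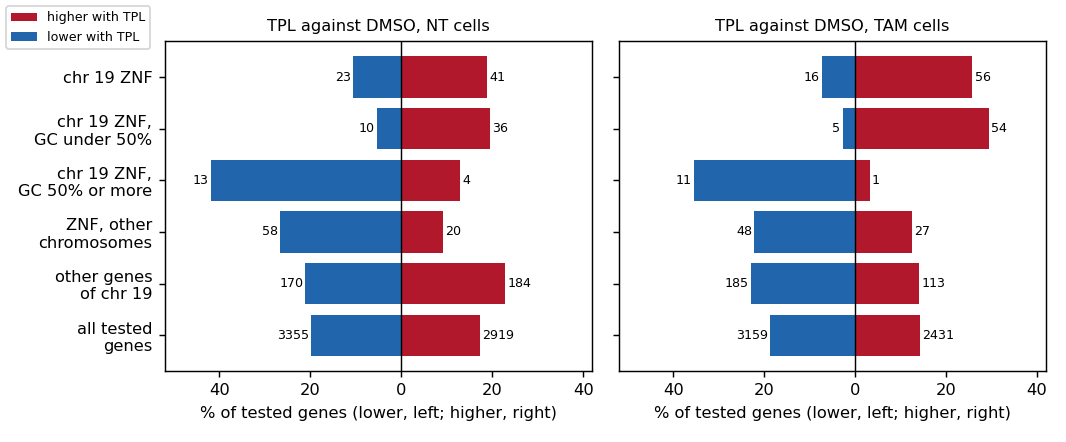
Share of tested genes that were higher (red, to the right) or lower (blue, to the left) with TPL at an adjusted p up to 0.05, for NT (left panel) and TAM (right panel), with the number of genes beside each bar. In TAM cells 56 of the 217 chromosome 19 ZNF genes were higher and 16 lower, and among the 31 with a transcript GC content of 50% or more 1 was higher and 11 were lower.

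The same symbol class on other chromosomes moved differently. Of 217 tested ZNF genes elsewhere in the genome, 20 rose and 58 fell with TPL in NT (median -0.25), and 27 rose and 48 fell in TAM (median -0.13). The 805 other protein-coding genes tested on chromosome 19 gave 184 rises and 170 falls in NT (median 0.24) and 113 rises and 185 falls in TAM (median 0.01). These values stand side by side and no test of the lists was made.

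At the stricter threshold, an adjusted p up to 0.001 and a change of 1.2 or more on the log2 scale, 2 zinc finger genes were called higher with TPL in NT (ZNF304 and ZNF791) and 1 lower (ZNF628), where 1.22% of all genes tested were called higher and 2.71% lower. In TAM 3 were called higher (ZNF304, ZNF546 and ZNF701) and 2 lower (ZNF444 and ZNF581), against 0.844 and 2.04% of all genes. ZNF304 was the only one of them called in both states. With any 1 of the 8 libraries left out, 0 calls were left in NT. In TAM 0 calls were left without any 1 library of NT, TAM or TAM + TPL, and 2 higher and 2 lower without either library of NT + TPL.

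ZNF304 (gene ID 57343, chr19:57862639-57871266, plus strand), a KRAB protein described as a recruiter of silencing to tumour suppressor genes in colorectal cancer, had 1.90 and 2.13 FPKM in NT and 8.48 and 8.48 in NT + TPL. In TAM it had 2.22 and 2.15 FPKM, and 7.79 and 8.83 in TAM + TPL. Every TPL library was above 7.5 FPKM and every DMSO library below 2.5, with no overlap. With TPL it rose by 2.07 on the log2 scale in NT (SE 0.164, adjusted p = 0.000366, edgeR) and 1.88 in TAM (SE 0.162, adjusted p = 0.000547), and over all alternatives it stayed between 1.65 and 2.29 and between 1.55 and 2.12.

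ZNF791 (gene ID 163049, chr19:12721732-12744654) had 7.30 and 7.85 FPKM in NT cells, 21.4 and 19.2 in NT + TPL, 8.21 and 8.10 in TAM cells and 21.12 and 18.98 in TAM + TPL. Its log2 fold change was 1.42 (SE 0.140, adjusted p = 0.000721) without tamoxifen and 1.25 in TAM cells (SE 0.139, adjusted p = 0.00122). ZNF546 (gene ID 339327, chr19:40490041-40526945) had 0.82 and 0.76 FPKM in NT cells, 2.56 and 2.21 in NT + TPL, 0.66 and 0.71 in TAM cells, and 3.22 and 2.75 in TAM + TPL. ZNF701 (gene ID 55762, chr19:53059075-53090427) had 0.90 and 0.75 FPKM in NT cells, 2.96 and 2.72 in NT + TPL, 0.67 and 0.50 in TAM cells, and 3.46 and 4.06 in TAM + TPL. In both genes the TPL libraries were above all DMSO libraries, with a log2 fold change in TAM of 2.07 for ZNF546 (SE 0.206, adjusted p = 0.000849) and 2.65 for ZNF701 (SE 0.262, adjusted p = 0.000822).

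The genes called lower were of another kind, with transcripts of high GC content. ZNF628 (gene ID 89887, chr19:55987984-55995854), known as a regulator of male germ cell genes in mice, had 10.3 and 9.33 FPKM in NT cells, 1.03 and 0.51 in NT + TPL, 13.6 and 9.27 in TAM cells and 1.47 and 1.10 in TAM + TPL. It fell by 3.68 on the log2 scale in NT (SE 0.356, adjusted p = 0.000669) and by 3.20 in TAM (SE 0.339, adjusted p = 0.00105), and the groups did not overlap. ZNF581 (gene ID 51545, chr19:56146825-56156989) had 27.1 and 23.3 FPKM in NT cells, 9.30 and 10.3 in NT + TPL, 34.3 and 33.6 in TAM cells and 9.33 and 10.9 in TAM + TPL. It overlaps ZNF580 (chr19:56146382-56154836) on the same strand, so the levels of both may not be fully separable, which was not tested. ZNF444 (gene ID 55311, chr19:56643968-56672262), a SCAN domain protein, had 15.2 and 12.4 FPKM in NT cells, 6.63 and 6.40 in NT + TPL, 15.2 and 14.1 in TAM cells and 4.4 and 3.67 in TAM + TPL. TPL brought ZNF581 and ZNF444 below every DMSO library in both states. In TAM, ZNF581 fell by 1.79 (SE 0.178, adjusted p = 0.000827) and ZNF444 by 1.91 (SE 0.194, adjusted p = 0.000893).

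**Figure D2:**
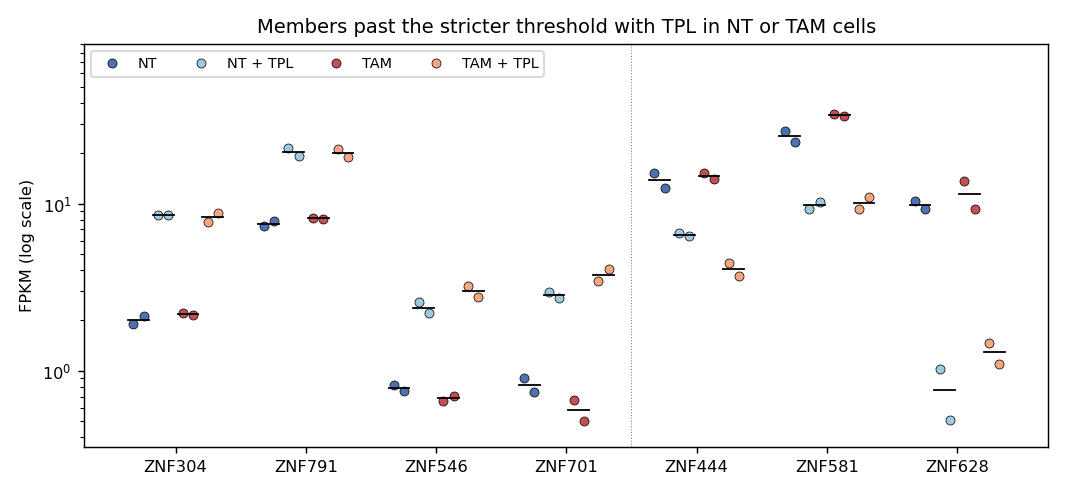
FPKM on a log axis of the 7 genes past the stricter threshold with TPL in NT or TAM cells, 1 point per library, with a bar at the mean of the 2 replicates. In the 4 genes on the left all TPL libraries lie above all DMSO libraries, and in the 3 on the right all lie below.

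Among the genes with a mean of at least 1 FPKM and TPL libraries all on one side of the DMSO libraries, the largest rises with TPL in NT were those of ZNF547 (4.41 on the log2 scale), ZNF211 (2.72), ZNF446 (2.11), ZNF304, ZNF471 (1.93) and ZNF404 (1.84). ZNF547, for example, had 0.05 and 0.24 FPKM in NT and 2.52 and 4.03 in NT + TPL, and ZNF211 had 0.59 and 0.86 against 4.43 and 4.78. In TAM they were ZNF547 (2.98), ZNF701, ZNF112 (2.27), ZNF546, ZNF432 (1.96) and ZNF304. The largest falls in NT were those of ZNF121, ZNF628, ZNF71 (-2.34), ZNF583 (-2.21), ZNF584 (-2.18) and ZNF30 (-1.86). In TAM they were ZNF583 (-3.47), ZNF628, ZNF584 (-2.57), ZNF787 (-2.05), ZNF444 and ZNF579 (-1.84). ZNF583 had 1.36 and 1.46 FPKM in TAM and 0.16 and 0.10 in TAM + TPL, where its libraries held 3 and 2 counts. ZNF787 had 46.8 and 37.9 FPKM in TAM cells and 12.4 and 8.66 in TAM + TPL. Some of these sizes rest on few counts or on 1 library. ZNF547 had 1.12 and 5.58 counts in the NT libraries, and its change in NT ran from 3.65 without NT replicate 1 to 6.09 without NT replicate 2. That of ZNF471 in NT was 1.05 without NT + TPL replicate 2, and that of ZNF584 in TAM ran from -3.88 without TAM + TPL replicate 1 to -1.86 without TAM + TPL replicate 2.

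The fall of ZNF121 depended on how its reads were assigned. Its row by gene ID had 8.26 and 8.97 FPKM in NT and was not listed in either NT + TPL library, which was taken as 0, while a further entry of the same gene by RefSeq accession had 1.19 and 4.28 FPKM in NT and 11.9 and 5.45 in NT + TPL. With the accession entries added to the gene, its log2 fold change was -0.36 (adjusted p = 0.377). Such further entries exist for 11 of the 237 genes.

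Part of the response was the same in both states. The TPL comparisons in NT and in TAM have no library in common, and 34 of the 217 genes rose in both, which is 82.9% of those that rose in NT and 60.7% of those that rose in TAM. A fall in both states was found for 15, which is 65.2% of the falls in NT and 93.8% of those in TAM, and 0 genes moved in opposite directions at this level. Over all genes tested, 1671 rose in both states (57.2% of the rises in NT and 68.7% of those in TAM), 2401 fell in both (71.6 and 76.0% of the falls), and 25 moved in opposite directions. The zinc finger genes were thus above the background in some of these shares and below it in others. In FPKM, the TPL libraries lay above the DMSO libraries in both states for 86 zinc finger genes (39.6%, against 27.8% of all genes tested) and below in both for 29 (13.4%, against 25.7%).

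**Figure D3:**
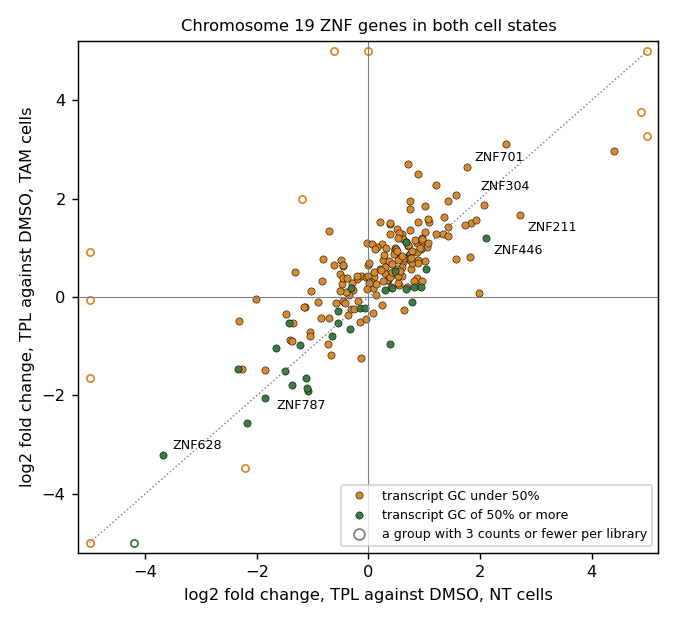
Log2 fold change with TPL in NT cells (x axis) and in TAM cells (y axis) for 215 tested chromosome 19 ZNF genes with a known transcript GC content, where orange points have GC under 50% and green points 50% or more. Open points had 3 counts or fewer per library in some group, 9 points beyond 5 are drawn at the edge, and the dotted line marks equal change. Most orange points lie in the upper right and the green points ZNF628 and ZNF787 in the lower left.

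The transcripts that rose and fell differed in base composition. The canonical transcripts of the zinc finger genes had a median GC content of 42.4% (range 33.2 to 70.9%), against 48.5% for all tested protein-coding genes. Among the 184 tested genes under 50% GC, 36 rose and 10 fell with TPL in NT (median 0.39), and 54 rose and 5 fell in TAM (median 0.68). Among the 31 with 50% GC or more, 4 rose and 13 fell in NT (median -0.54), and 1 rose (ZNF324) and 11 fell in TAM (median -0.53). The boundary of 50% was chosen after the values were seen, and it parts ZNF628 (70.8% GC), ZNF787 (70.4%), ZNF444 (68.7%), ZNF579 (66.0%) and ZNF581 (61.8%) from ZNF701 (45.3%), ZNF304 (46.3%) and ZNF546 (38.04%).

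The same boundary did not part the protein-coding genes as a whole. Under 50% GC, 1073 of 7169 rose and 1717 fell in NT (median -0.07), and 905 rose and 1499 fell in TAM (median -0.06). Of the 6117 with 50% GC or more, 1276 rose and 1418 fell in NT (median 0.08), and 944 rose and 1465 fell in TAM (median -0.05). The zinc finger genes of other chromosomes under 50% GC (143 tested) had 13 rises and 36 falls in NT (median -0.20), and in TAM cells 18 and 28 (median 0.08). Those with 50% GC or more (74 tested) had 7 rises and 22 falls in NT (median -0.35), and in TAM cells 9 and 20 (median -0.43), so that their medians too were lower at high GC. Exceptions on chromosome 19 ran both ways. ZNF446, at 63.5% GC, rose in NT from 1.80 and 2.36 to 7.23 and 5.98 FPKM (log2 fold change 2.11, SE 0.397, adjusted p = 0.00749), and ZNF480, at 37.5% GC, fell in NT from 8.02 and 8.50 to 2.94 and 3.23 FPKM (-1.41, SE 0.163, adjusted p = 0.00119). Across the 215 genes the rank correlation of GC with the change was weak, with a Spearman's rho of -0.05 in NT and -0.16 in TAM, and the points share the same libraries.

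Rises and falls were also counted by stretch of the chromosome, as a description with no test. Start sites more than 1 Mb apart were taken to part blocks, which gave 15 blocks of between 1 and 58 genes. The block of 38 genes with start sites between 52074536 and 54041399 of chromosome 19 (hg19) had 34 tested genes, of which 7 rose and 2 fell in NT (median 0.40) and 13 rose and 1 fell in TAM (median 0.77). The block of 31 genes between 19779648 and 24269989, which holds ZNF91 and ZNF93, had 23 tested genes, of which 5 rose and 0 fell in NT and 7 rose and 0 fell in TAM (medians 0.39 and 0.76). In the block of 26 genes between 36705567 and 38270226, 3 of 25 rose and 1 fell in NT and 4 rose and 1 fell in TAM (medians 0.05 and 0.29). The block of 24 genes between 44037340 and 45579736 was mixed in NT, with 2 rises and 3 falls among 23 tested, and had 4 rises and 1 fall in TAM (medians -0.01 and 0.31). The blocks of 15 and 23 genes nearer the other end had 2 rises and 2 falls and 3 rises and 2 falls in NT, and 3 and 1 and 4 and 2 in TAM. In NT the shares that rose in these blocks lay between 8.7 and 21.7%, around the 18.9% of all the zinc finger genes.

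The block nearest the end of the long arm, with 58 genes between 55987984 and 58987719, held a stretch with mostly falls, a stretch with rises and no falls, and mixed stretches. Its first 9 genes, from ZNF628 to ZNF444 (start sites 55987984 to 56652656), had transcripts of 61.8 to 70.9% GC, and 6 of them fell in each state with medians of -1.09 in NT and -1.79 in TAM. ZNF580 rose in NT, ZNF524 and ZNF784 passed the test in neither state, and ZNF865 fell by 0.66 in NT (adjusted p = 0.0344) and by 0.79 in TAM (adjusted p = 0.0203). Further along, the 28 genes from ZNF264 to ZNF417 (57702868 to 58427960) had transcripts of 40.3 to 49.9% GC. Of these, 11 rose and 0 fell in NT and 13 rose and 0 fell in TAM, with medians of 0.59 and 0.91, and 27 of the 28 had a positive log2 fold change in TAM. Between these, the 7 genes from ZNF582 to ZNF835 had 1 rise and 2 falls in NT and 1 and 1 in TAM, and ZNF583, which fell in both states, lies there with ZNF471, which rose in both. The last 14, from ZNF256 to ZNF446, had 1 rise and 1 fall in each state. The ends of these stretches were set after the values were seen, so their counts are a description. Over the whole block, 14 of 55 tested genes rose and 9 fell in NT (25.5 and 16.4%), and 15 rose and 8 fell in TAM (27.3 and 14.5%). Of all genes tested, 17.2% rose and 19.8% fell in NT, and 14.3 and 18.6% did in TAM.

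**Figure D4:**
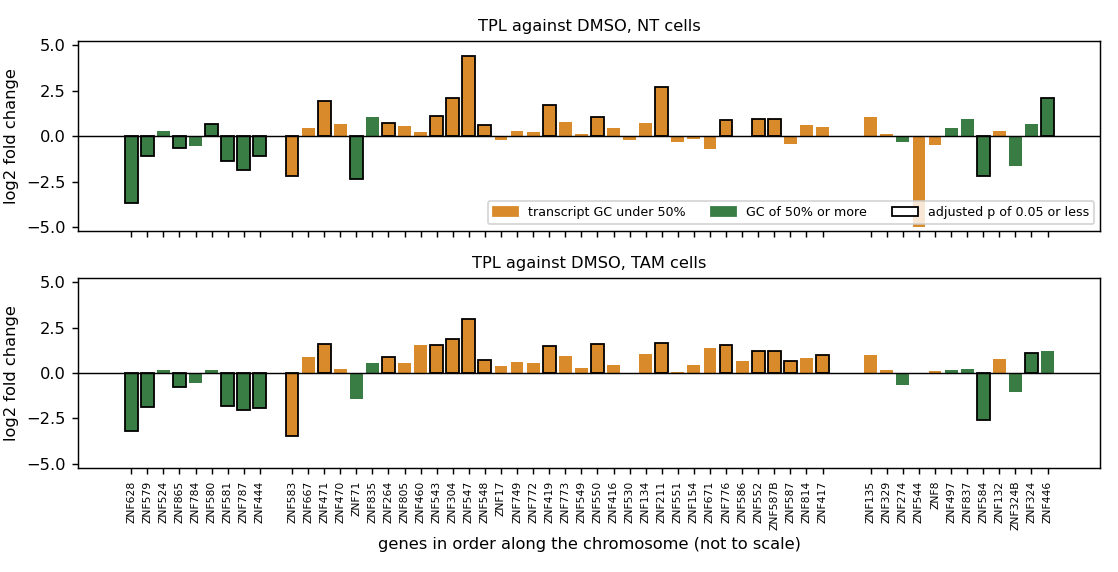
Log2 fold change with TPL in NT (top) and TAM cells (bottom) for the 55 tested genes of the last block in their order along the chromosome, not to scale and cut at 5. The NT bar of ZNF544 (-9.31) rests on its row by gene ID, with 0 and 5.53 FPKM in NT and 0 in both NT + TPL libraries. Its 15 further entries by accession held 23.0 and 16.9 FPKM in NT and 19.1 and 21.8 in NT + TPL. Orange bars have a transcript GC content under 50%, green bars 50% or more, and a black outline marks an adjusted p of at most 0.05. Falls are grouped at the left, from ZNF628 to ZNF444, and rises in the middle, from ZNF264 to ZNF417.

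Among the genes with a described function, some rose with TPL and others did not pass the test. ZNF91, which represses SVA elements, had 3.93 and 4.39 FPKM in NT cells, 6.15 and 10.8 in NT + TPL, 3.38 and 3.02 in TAM cells and 7.69 and 8.73 in TAM + TPL. It rose in both, by 1.01 (SE 0.285, adjusted p = 0.0313) and 1.32 (SE 0.289, adjusted p = 0.0145), and without NT + TPL replicate 2 its change in NT was 0.52. It did not pass in NT without NT replicate 1, NT replicate 2 or NT + TPL replicate 2, nor in TAM without any 1 library of TAM or TAM + TPL. ZNF93, which represses L1 elements, had 0.51 and 0.36 FPKM in NT cells, 1.55 and 1.54 in NT + TPL, 1.34 and 1.08 in TAM cells and 1.86 and 2.48 in TAM + TPL. Its change was 1.81 in NT (adjusted p = 0.0148) and 0.81 in TAM (adjusted p = 0.148), and the difference between the states did not pass the test (-1.0, SE 0.557, adjusted p = 0.556).

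ZNF382, described as a silenced growth suppressor in tumours, was nearly absent without TPL. It was not listed in NT replicate 1 and had 0.04 FPKM in NT replicate 2 and 0.08 and 0.04 in TAM, and 0.87 and 0.74 in NT + TPL and 0.61 and 1.30 in TAM + TPL, which rest on between 0 and 2 counts per DMSO library and between 13 and 30 per TPL library. It rose in both states (adjusted p = 0.0114 and adjusted p = 0.0202). ZNF274, which binds the 3′ ends of zinc finger genes, had 5.68 and 3.70 FPKM in NT cells, 4.35 and 3.04 in NT + TPL, 5.10 and 5.34 in TAM cells and 3.69 and 2.90 in TAM + TPL, with log2 fold changes of -0.33 (adjusted p = 0.408) and -0.66 (adjusted p = 0.135). ZNF350 (ZBRK1), a partner of BRCA1, had changes of 1.34 and 1.28 with higher values in all TPL libraries (adjusted p = 0.0805 and adjusted p = 0.0968). ZNF420, ZNF224, ZNF154, ZNF808, ZNF568, ZNF649 and ZNF671 did not pass the test in either state, with log2 fold changes between -1.14 and 1.35. The row of the imprinted gene ZNF331 was not listed in 5 of the 8 libraries, and its reads are divided over 4 further entries by accession. With those entries added its log2 fold change with TPL in NT was -0.78 (adjusted p = 0.027), so the value of its row alone is not given here.

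Between TAM and NT cells with DMSO, 0 of the 217 zinc finger genes were higher in TAM at an adjusted p up to 0.05, while 2 were lower, where 3.46 and 3.39% of all genes tested were. At an unadjusted p under 0.05 there were 6 higher (2.76%, against 9.51% of all genes tested) and 21 lower (9.68%, against 10.4%), and 0 passed the stricter threshold (0.378 and 0.277% of all genes). The median was -0.19, against -0.03 for all genes, and the TAM libraries lay wholly below the NT libraries for 89 genes and wholly above for 23 (28.7 and 24.0% of all genes). ZNF28 had 4.35 and 4.75 FPKM in NT and 2.33 and 1.92 in TAM, and it was lower in TAM (log2 fold change -1.07, SE 0.187, adjusted p = 0.0186). ZNF587 had 21.2 and 17.3 FPKM in NT and 10.2 and 12.1 in TAM (-0.77, SE 0.176, adjusted p = 0.0483). With any 1 NT or TAM library left out neither passed the test, and ZNF587 did not pass it without any 1 of the other libraries either. DESeq2 gave 5 genes past an adjusted p of 0.05, where it gave 8.43% of all genes.

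With TPL in both states, 2 genes were higher in TAM cells (ZNF83 and ZNF443) and 2 lower (ZNF358 and ZNF580), against 2.83 and 4.21% of all genes tested, and 0 passed the stricter threshold (0.36 and 0.236%). ZNF83 was higher in TAM + TPL by 0.75 on the log2 scale (SE 0.142, adjusted p = 0.0252). ZNF358 had 50.6 and 62.2 FPKM in NT + TPL and 27.4 and 27.6 in TAM + TPL (-1.06, SE 0.165, adjusted p = 0.0121), and ZNF580 differed by -1.06 (SE 0.170, adjusted p = 0.0137). ZNF443 was not listed in either NT + TPL library and had 0.53 and 0.57 FPKM in TAM + TPL, so that it was at least 3.98-fold higher there than the limit of 3 counts per library allows in NT + TPL. Without TAM + TPL replicate 1 only 1 gene of the 217 passed and without TAM + TPL replicate 2 none (0), and without either TAM library 2 did. ZNF443 did not pass without any 1 of the 8 libraries.

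Whether TPL acted differently on a gene in the 2 states was tested as an interaction. At an adjusted p of at most 0.05 the edgeR test found 0 of the 217 genes, where the background was 0.0885% for a more positive and 0.0767% for a more negative change in TAM. At an unadjusted p under 0.05 there were 21 whose change was more positive in TAM cells (9.68%, against 5.03% of all genes tested) and 2 whose change was more negative (0.922%, against 5.59%), the median difference was 0.27 against -0.02 for all genes, and DESeq2 gave 5 past an adjusted p of 0.05, where it gave 2.12% of all genes. This difference uses the same TAM and NT libraries as the comparison without TPL. In FPKM, the TPL libraries lay wholly below the DMSO libraries in NT and wholly above them in TAM for 12 of the 217 (5.53%, against 1.46% of all genes tested). The smallest p values were those of ZNF443, ZNF841 and ZNF587. ZNF841 had 7.13 and 6.18 FPKM in NT and 4.72 and 5.05 in NT + TPL, but 3.98 and 4.38 in TAM cells and 6.48 and 7.0 in TAM + TPL (difference 1.09, SE 0.242, adjusted p = 0.201). ZNF587 went from 21.2 and 17.3 to 15.1 and 13.3 FPKM in NT and from 10.2 and 12.1 to 19.8 and 16.1 in TAM (difference 1.09, SE 0.248, adjusted p = 0.207).

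Of the corepressor genes that work with KRAB proteins, more fell than rose with TPL. The list held TRIM28, TRIM24, TRIM33, SETDB1, ATF7IP, CBX1, CBX3, CBX5, CHD3, CHD4, HDAC1, HDAC2, DNMT1, UHRF1, MPHOSPH8, TASOR, PPHLN1, MORC2, ATRX, DAXX and SMARCAD1. Of these 21 genes, 2 rose and 10 fell in NT (median -0.71), where 17.2% of all genes rose and 19.8% fell, and 1 rose and 10 fell in TAM (median -0.57), where 14.3 and 18.6% did. TRIM28, the scaffold that the KRAB domain binds, was the most abundant and had 163.0 and 137.9 FPKM in NT cells, 211.7 and 220.6 in NT + TPL, 169.1 and 161.8 in TAM cells and 211.4 and 202.7 in TAM + TPL, with log2 fold changes of 0.52 (adjusted p = 0.0244) and 0.28 (adjusted p = 0.158). SETDB1, which writes H3K9me3, fell from 11.0 and 12.7 to 6.28 and 6.05 FPKM in NT (-1.0, adjusted p = 0.00477) and from 11.6 and 9.72 to 6.22 and 5.33 in TAM (-0.96, adjusted p = 0.00625). Its partner ATF7IP fell by 1.80 in NT (adjusted p = 0.000458) and by 1.27 in TAM (adjusted p = 0.00136). Of the HP1 genes, CBX5 rose in both states (0.63 and 0.70) while CBX1 (-0.71 and -1.32) and CBX3 (-0.82 and -1.14) fell.

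The share of zinc finger start sites under a listed RNAPII peak was near that of protein-coding genes without TPL and above it with TPL, but this depended on how far inside the peak the start site had to lie. The canonical start site was inside a listed peak for 117 of 234 genes in NT (50%), where 47.7% of 19894 protein-coding genes were, and for 107 in NT + TPL (45.7%, against 38.2%). In TAM the numbers were 101 (43.2%, against 42.1%) and in TAM + TPL 115 (49.1%, against 37.4%). Each condition has a single list without heights or replicates, so no test between conditions was possible. The peak names of the TAM list carry another cut-off label than those of the other 3 lists, so numbers that involve TAM may not be on the same threshold. With the start site at least 100 bases inside the peak, the shares were 38.5% in NT (against 40.7% of all genes), 34.2% in NT + TPL (against 33.2%), 21.4% in TAM (against 28.3%) and 34.6% in TAM + TPL (against 30.6%). Median widths of the peaks over these start sites were 478 bases in NT, 423 in NT + TPL, 346 in TAM cells and 366 in TAM + TPL.

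**Figure D5:**
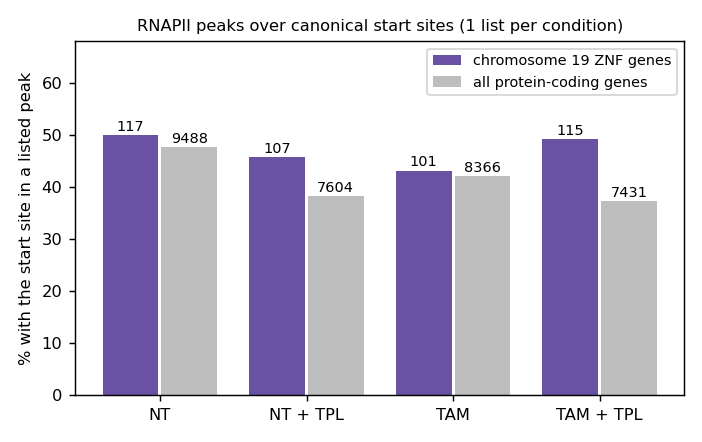
Percentage of the 234 chromosome 19 ZNF genes (purple) and of 19894 protein-coding genes (grey) whose canonical start site lies in a listed RNAPII peak, in each condition, with the number of genes above each bar. With TPL the purple bars stand above the grey ones, at 45.7 against 38.2% in NT + TPL and 49.1 against 37.4% in TAM + TPL.

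Of the 117 zinc finger start sites with a peak in NT, 99 kept one with TPL (84.6%, against 77.1% of all protein-coding genes with a peak), and of the 101 in TAM, 85 did (84.2%, against 80.9%). A further 8 start sites were listed in NT cells only with TPL (3.42%, against 1.45% of all protein-coding genes), and 30 in TAM cells (12.8%, against 3.34%). Of these 30, 14 also had a peak in NT and in NT + TPL, and 3 in NT but not in NT + TPL. The gain in TAM depended on the assignment. Within 1000 bases of a peak lay 121 start sites in TAM (51.7%, against 49.3% of all protein-coding genes) and 123 in TAM + TPL (52.6%, against 41.5%). All 4 lists held 79 of the 234 start sites (33.8%, near the 31.5% of all genes), and 96 were in none (41.0%, against 49.5%). ZNF304, ZNF791 and ZNF546, which rose, had a peak in every condition, as did ZNF581 and ZNF787, which fell. The peaks over ZNF791 (start site 12721734) and its neighbour ZNF490 (12721627) had equal widths in every condition (629, 999, 428 and 664 bases). Those over ZNF580 and ZNF581 were both 4051 bases wide in NT. Such peaks cannot be credited to either gene alone. The peak over ZNF628 was 720 bases wide in NT, 288 in NT + TPL and 983 in TAM and was not listed in TAM + TPL, and ZNF701 and ZNF444 had no peak over the canonical start site in any condition.

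RNA changes can be set beside the peaks, which come from other libraries. The 98 tested genes that kept a peak with TPL in NT had a median log2 fold change of 0.30, with 24 rises and 13 falls, and the 18 that lost it had a median of -0.35, with 1 rise and 5 falls. In TAM the 85 that kept it had a median of 0.54, with 31 rises and 8 falls, and the 15 tested genes that lost it had a median of -0.42, with 2 rises and 3 falls. The 30 with a peak only in TAM + TPL had a median of 0.45, with 7 rises and 1 fall. Genes without a peak in either list had medians of 0.51 in NT (91 genes) and 0.69 in TAM (85 genes). Of all genes tested, 17.2% rose and 19.8% fell in NT, and 14.3 and 18.6% did in TAM. Shares of all genes within each peak class are not given, so these counts have no background of their own. The classes also differed in level. The median was 4.16 FPKM where the peak was kept and 1.83 where it was lost in NT, and 4.18 and 2.25 in TAM. No test of these differences was made.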

How the data were processed

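Poly-A RNA-Seq reads were aligned by the authors with Bowtie2 to reference genes and quantified with RSEM, and the deposited tables give expected counts and FPKM per gene ID or RefSeq accession. Genes that a table does not list were taken as 0. Whether counting used strand is not given in the sources used here. The authors mapped the ChIP reads to hg19 with SOAP2 and called peaks over input with MACS, and the peak lists give positions only. Expected counts were rounded, and the edgeR (4.0.16, R 4.3.3) quasi-likelihood test with TMM scaling, filterByExpr and Benjamini-Hochberg adjustment was fitted over all 4 groups and 16948 genes. The script was first tested on simulated data. Alternatives covered DESeq2 (1.42.0), limma (3.58.1) on log2(FPKM + 1) and log2(FPKM + 0.1), other scalings and filters, accession entries added to their genes, a replicate block, and each library left out. Start sites came from GENCODE 44 on GRCh37.

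The members and lists were chosen with earlier results of these data known. Named with values were genes of described function, the 5 highest in mean FPKM, the 6 largest rises and falls per TPL comparison with a mean of at least 1 FPKM and no overlap between groups, the 3 smallest p values per direction between TAM and NT, the 3 smallest interaction p values, and genes past the stricter threshold in both states. Genes of the stretches, the GC exceptions and the other genes past the stricter threshold were named after their values were seen. Total counts of 7461309 to 8349448 per library leave genes under 1 FPKM with few counts.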

Additional observations from a re-analysis of the deposited data

Results flagged for a closer look

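In 6 of the named genes every TPL library lay below the DMSO libraries in NT and above them in TAM. The pattern was found for 12 of the 217 zinc finger genes tested (5.53%, against 1.46% of all genes tested). Of the 6, ZNF443, ZNF841 and ZNF587 were named for their small interaction p values, so the pattern in them follows in part from that choice. The difference of the TPL effects (TAM minus NT, log2) was 1.09 for ZNF841 (adjusted p = 0.201, edgeR) and 1.09 for ZNF587 (adjusted p = 0.207), whose libraries are given in the report. For ZNF443 it was at least 3.04 when the NT + TPL libraries, which do not list it, are set to 3 counts (adjusted p = 0.168).

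ZNF808, a KRAB gene, had 2.16 and 2.36 FPKM in NT cells, 2.12 and 1.13 in NT + TPL, 1.85 and 1.73 in TAM cells and 2.56 and 3.69 in TAM + TPL, with a difference of 1.24 (adjusted p = 0.466). ZNF224, described as a repressor of aldolase A, had 5.07 and 4.60 FPKM in NT cells, 3.33 and 3.48 in NT + TPL, 3.5 and 3.36 in TAM cells and 4.12 and 5.68 in TAM + TPL, with a difference of 0.98 (adjusted p = 0.402). ZNF671, often methylated in tumours, had 1.14 and 1.29 FPKM in NT cells, 0.42 and 1.06 in NT + TPL, 0.43 and 0.29 in TAM cells and 1.29 and 0.64 in TAM + TPL, with a difference of 2.06 (adjusted p = 0.489). None of the 6 passed the interaction test after adjustment in the main edgeR fit. Among the alternatives, ZNF587 and ZNF841 passed an adjusted p of 0.05 in some but not in all. ZNF443, ZNF808, ZNF224 and ZNF671 passed in none.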

How the results depend on the processing

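With an adjusted p of 0.05 and no fold limit, the calls of 2 higher and 1 lower with TPL in NT became 41 and 23, and with the fold limit 18 and 16, while those of 3 higher and 2 lower in TAM became 56 and 16, and 28 and 11. Between TAM and NT, 0 became 2 with DMSO, and with TPL 4, or 1 with the fold limit. DESeq2 called 12 higher and 8 lower in NT and 21 and 8 in TAM, a minimum of 10 counts 8 and 4 and 12 and 6, and added accession entries 9 and 7 and 13 and 8. The shares of all genes called under each alternative are not given here. The counts alone therefore do not set the zinc finger genes against a background. Fitting only the 2 groups compared left 0 calls in each direction in both states. GAPDH scaling gave 0 higher and 2 lower in NT and 0 higher in TAM. Lower calls were 2 in NT and 4 in TAM with no filter, and 3 and 4 with limma and a pseudocount of 1. With a pseudocount of 0.1 limma gave 2 lower in NT and 1 higher in TAM. Upper quartile scaling gave 5 higher and 0 lower in TAM, and DESeq2 size factors and library size each 1 lower. With 1 library left out between 0 and 0 calls were left in NT cells and between 0 and 2 in TAM cells. Replicate numbers did not pair the samples (correlations of deviations from -0.16 to 0.06), and the replicate block left 0 stricter calls in each TPL comparison, and 34 higher and 21 lower in NT and 46 and 16 in TAM at an adjusted p of 0.05.

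The median log2 fold change in NT was 0.55 with upper quartile scaling, -0.028 with GAPDH (all genes -0.26), 0.11 centred within 10 bins of mean expression, -0.54 for transcripts of 50% GC or more, and between 0.21 and 0.39 with 1 library left out. In TAM it was 0.77 with upper quartile scaling, 0.41 with GAPDH, 0.60 with a minimum of 10 counts, 0.38 with limma and a pseudocount of 1, 0.37 within bins of expression, 0.63 within bins of GC, 0.68 under and -0.53 at or over 50% GC, and between 0.49 and 0.59 with 1 library left out. The GC alternatives were chosen after seeing the data. Requiring 100 bases of the peak on both sides of the start site left 50 of 101 genes in TAM. With its accession entries added, ZNF331 had a change of -0.78 in NT (adjusted p = 0.027), opposite to that of its row by gene ID. The causes were not tested. Low counts limit genes under 1 FPKM.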

Other observations

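Reads of 4 chromosome 19 zinc finger genes without a row by gene ID were listed under RefSeq accessions. ZNF888 had 2.93 and 3.48 FPKM in NT cells, 4.12 and 2.50 in NT + TPL, 1.94 and 1.08 in TAM cells and 2.91 and 4.41 in TAM + TPL. ZNF433 had 0.99 and 0.36 FPKM in NT cells, 0.94 and 1.02 in NT + TPL, 0.26 and 0.27 in TAM cells and 1.95 and 0.92 in TAM + TPL. ZNF418 and ZNF257 stayed at or below 0.21 FPKM. In ZNF888 and ZNF433 both TAM libraries were below every library of the other groups.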
